A study of Mus musculus with 2 samples.

Results

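Transcripts of the kinetochore, the spindle checkpoint and the Aurora kinase complex were compared between the second polar body (PB2) and the zygote. The genes were taken by symbol from the table of expression values: the CENP genes, the subunits of the NDC80, MIS12 and SKA complexes, KNL1, Mis18a, the BUB and MAD genes, ZW10 and Zwilch, TTK, the Aurora kinases with INCENP, survivin and borealin, and the shugoshins. In all 53 of 11262 genes in the table matched. The values come from 1 library of PB2 and 1 library of zygotes. Both were made from untreated C57BL/6 embryos (C57BL/6N in the study's methods) late in the 1-cell stage, whose zona pellucida had been dissolved in acid Tyrode's solution and whose PB2 had been pipetted off in trypsin. All embryos came from KSOM culture. PB2s or zygotes were pooled, and their polyadenylated RNA was reverse transcribed and amplified over its whole length with a kit for single cells. With 1 library per group there is no replicate error, no test was run, and each difference describes these 2 libraries only. Less RNA per cell and fewer cells in a pool cannot be told apart from such values.

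A kinetochore is the protein structure that joins a chromosome to the microtubules of a spindle. It is built on centromeric chromatin marked by the histone variant CENP-A, through an inner layer (the constitutive centromere-associated network, CCAN) and an outer layer that binds microtubules (the KMN network of KNL1, the MIS12 complex and the NDC80 complex). Kinetochores without microtubules produce the checkpoint signal that holds back anaphase, while the Aurora kinase complex at the inner centromere destabilizes wrong attachments. In the mouse egg this machinery has carried the chromosomes through meiosis, when PB2 received a set of sister chromatids, and it is needed again at the first cleavage, before which the embryo makes little RNA of its own.

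Expression is given in TPM, the share of a library that a transcript takes after adjustment for its length, so that levels of different genes can be compared within a library. TPM holds proportions and not amounts. The difference of a gene is its log2 ratio, log2((PB2 TPM + 1)/(zygote TPM + 1)), taken over the 10645 genes with at least 1 TPM in either library. All 53 genes were at or above 1 TPM in both libraries. Oocyte identity was checked first: the 11 oocyte genes listed as markers, among them Gdf9, Bmp15 and Oosp1, were present at 62.7 TPM or more in both libraries. Of 10 cumulus and granulosa genes listed, the table held 2 by symbol. They were Cyp19a1 with 72.2 TPM (zygote) and 70.9 TPM (PB2) and Fshr with at most 3.3 TPM. Of 6 sperm genes listed, the table also held 2, Prm2 with 19.8 and 22 TPM and Akap4 with at most 1 TPM. The other genes of both lists had no row, so their level is unknown. The summed level of the cumulus and granulosa genes was 74.4 TPM in the zygote compared with 74.2 TPM in PB2, and that of the sperm genes was 20.8 and 22.6 TPM. The part of such cells in the values below was not tested.

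The kinetochore and checkpoint genes were abundant in both libraries and, as a group, somewhat lower in PB2. Their median level was 72.6 TPM in the zygote compared with 64.7 TPM in PB2, against 8.7 and 11.1 TPM over the whole table. Together they held 9554 TPM of the zygote library and 7975 TPM of the PB2 library, 1.03% and 0.888% of the summed TPM of each. At least 100 TPM was reached by 20 genes in the zygote and 17 in PB2, and the 2 most abundant were Cenpn and Aurkc in both.

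Of the 53 genes, 33 had a lower TPM in PB2 (62.3%, against a background of 40.0%) and 20 a higher one. The median log2 ratio was -0.18, with an order-statistic 95% interval over the genes of -0.43 to 0.02. That interval takes in equal levels and, with 1 library per group, measures no error of the difference between PB2 and the zygote. Over all genes compared the median was 0.21. Relative to that general shift towards PB2, 40 of the 53 genes lay below the median gene. Only Incenp and Bub1b were at least 2-fold higher in PB2 (3.77% of the genes, where the background over all genes was 18.9%). Past 2-fold on the zygote side were Bub1, Cenpq, Nuf2, Zwilch and Cenpl (9.43%, where the background was 8.09%). The share past 2-fold towards the zygote was thus near the background, and the share past 2-fold towards PB2 was below it. The background was not matched for level. Between zygote TPM and log2 ratio, Spearman's rho was -0.28 over all 10645 genes compared and -0.25 over the 53 genes. Zygote TPM is also the denominator of the ratio. Whether the level of the 53 genes accounts for their difference from the background was not tested. With the pseudocount of 1, Zwilch and Cenpl, both at -1.07, only just passed 2-fold on the zygote side. Ska1 at -0.99 and Birc5 at -0.94 only just missed it. Without a pseudocount the zygote TPM was 2.15 times the PB2 TPM for Zwilch, 3.09 for Cenpl, 2.03 for Ska1 and 1.93 for Birc5. Ska1 thus fell short of 2-fold only through the pseudocount, and with one of 0.1 it passed.

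**Figure D1:**
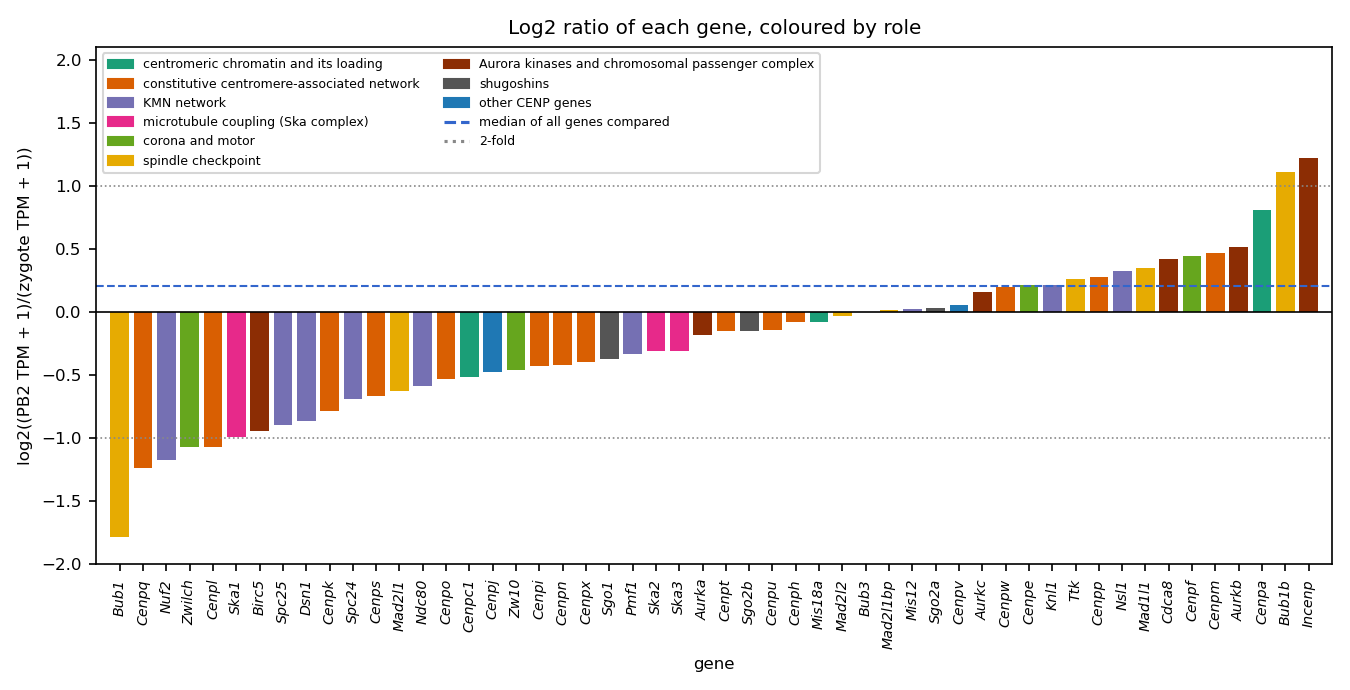
Log2 ratio of 52 of the genes (bars, coloured by role, 1 library per group), in rising order. The dashed line is the median of all genes compared, 0.21, and the dotted lines mark 2-fold; 32 bars lie below 0, Bub1 is lowest at -1.79 and Incenp highest at 1.22.

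The direction held in 35 of the 53 genes under each of the alternative ways of processing that were tried, 29 of them lower and 6 higher in PB2. The 18 genes whose direction turned under at least 1 of these included Aurkc, Bub3, Cdca8, Cenpe, Cenph, Cenpm, Cenpv, Cenpw, Knl1, Mad1l1, Mad2l1bp, Mis12, Mis18a, Nsl1, Sgo2a, Sgo2b and Ttk. For these genes the values below are given without a claim on direction. The share of all genes that keep their direction was not computed. The pseudocounts and filters cannot turn a direction. Centring shifts each log2 ratio by -0.21, and scaling the zygote by 1.06 also lowers each one. These can turn a gene that is higher in PB2 but not one that is lower. The split of 29 and 6 therefore depends in part on which alternatives were tried. The same limit applies wherever genes are called lower under each alternative below.

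**Figure D2:**
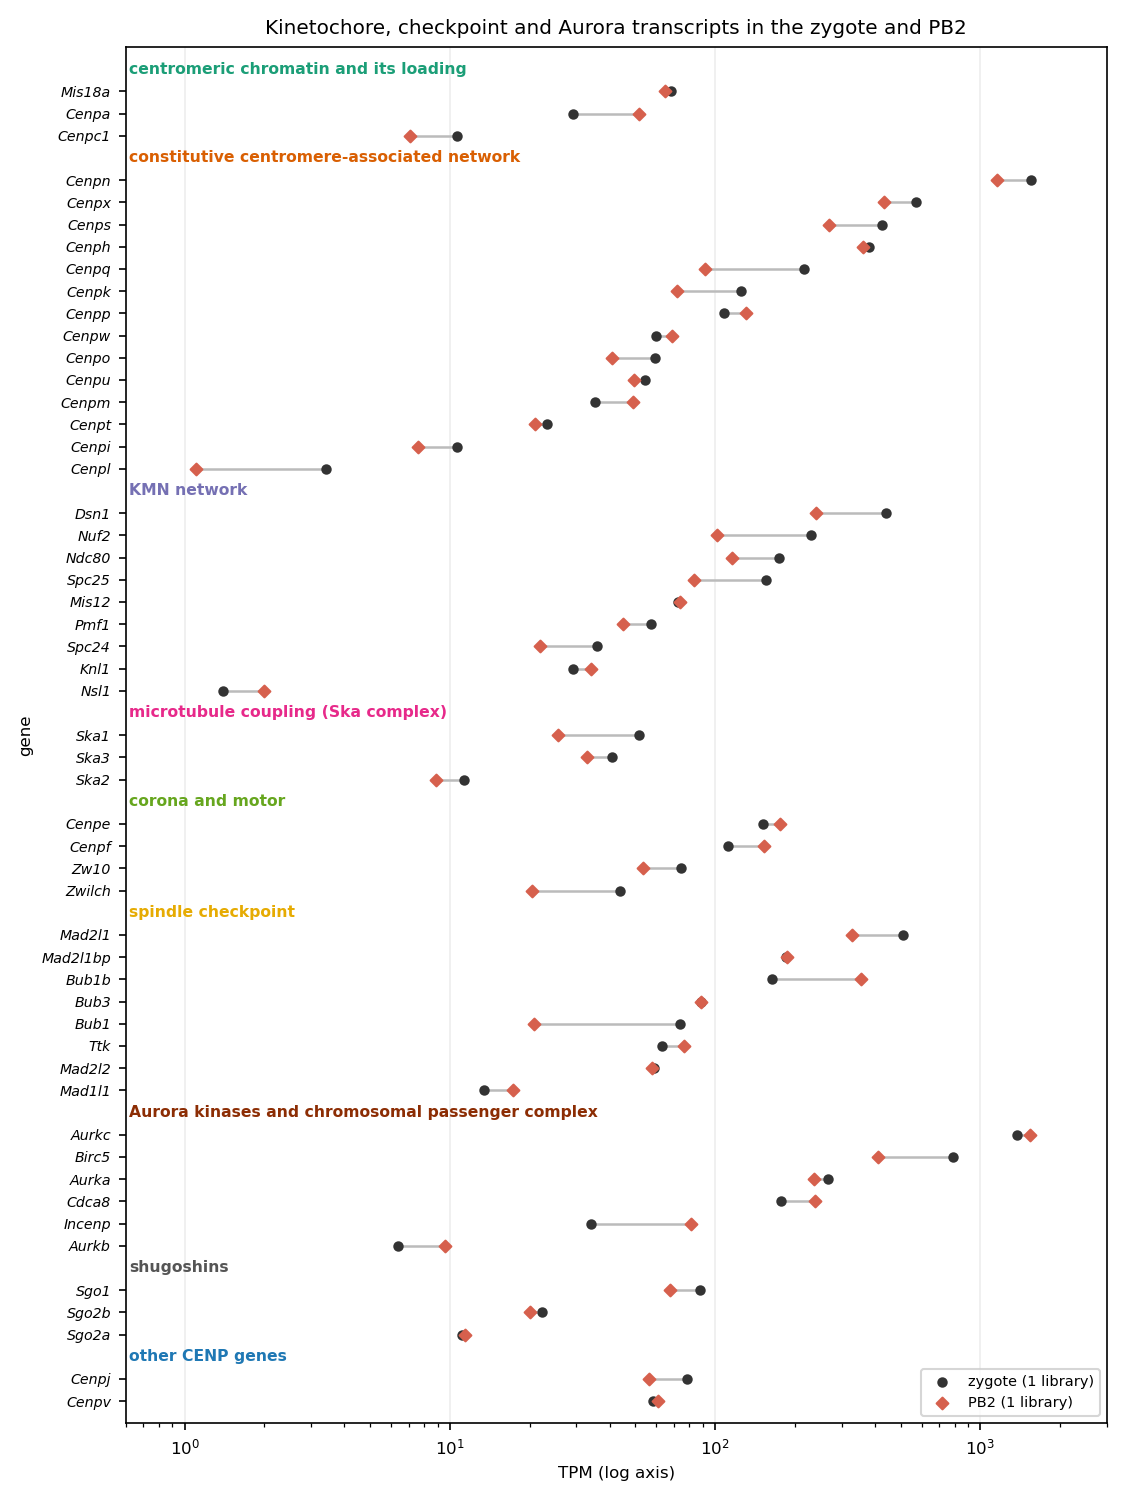
TPM of 52 of the genes in the zygote (circles) and in PB2 (diamonds), 1 library each, on a log axis and ordered by role. All 4 NDC80 subunits and all 3 SKA subunits lie to the left in PB2, whereas Incenp and Bub1b lie to the right.

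The spindle checkpoint held one gene past 2-fold in each direction as reported, of which Bub1 passed 2-fold under each alternative and Bub1b did not. Bub1, the kinase that brings checkpoint proteins to the kinetochore and marks centromeric histone H2A for shugoshin, had 73.9 TPM in the zygote but 20.7 TPM in PB2. Its log2 ratio of -1.79 was the lowest of the 53 genes, and only 1.11% of all genes compared had a lower one. Bub1b, which encodes the related protein BubR1, a subunit of the mitotic checkpoint complex that inhibits anaphase, had 163.4 TPM in the zygote but 353.6 TPM in PB2, which gave a log2 ratio of 1.11. A higher log2 ratio was found in 15.4% of all genes compared, so a difference of this size was common in this pair of libraries. The log2 ratio of Bub1b was 0.90 after centring, 0.80 with the GC trend removed and 0.76 with the length trend removed, each short of 2-fold. The paralogs thus stood further apart in PB2: Bub1b was 2.21 times as abundant as Bub1 in the zygote and 17.1 times in PB2, a 7.73-fold change of their ratio.

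Both genes lie on chromosome 2 of GRCm38, Bub1 from 127801122 to 127831865 on the minus strand with 25 exons, and Bub1b from 118598211 to 118641591 on the plus strand with 23 exons, and neither shares a 50-base stretch of its longest protein-coding transcript with a transcript of another gene in GENCODE M21. Their start regions are shown because these paralogs had the largest opposite differences within the checkpoint. The 300 bases around the start (RefSeq, GRCm38.p6) are chr2:127831810-127832109 on the minus strand for Bub1 and chr2:118597961-118598260 on the plus strand for Bub1b, with capitals for CCAAT and for TTTGAA, the core of the cell cycle homology region (CHR). Both were searched on both strands, so that ATTGG in capitals is a CCAAT of the other strand:
Bub1: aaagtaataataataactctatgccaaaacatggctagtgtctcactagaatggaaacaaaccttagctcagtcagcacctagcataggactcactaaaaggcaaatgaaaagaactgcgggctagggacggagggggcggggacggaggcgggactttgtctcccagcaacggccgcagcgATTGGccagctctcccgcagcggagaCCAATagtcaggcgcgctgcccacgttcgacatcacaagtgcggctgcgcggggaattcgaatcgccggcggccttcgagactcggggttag
Bub1b: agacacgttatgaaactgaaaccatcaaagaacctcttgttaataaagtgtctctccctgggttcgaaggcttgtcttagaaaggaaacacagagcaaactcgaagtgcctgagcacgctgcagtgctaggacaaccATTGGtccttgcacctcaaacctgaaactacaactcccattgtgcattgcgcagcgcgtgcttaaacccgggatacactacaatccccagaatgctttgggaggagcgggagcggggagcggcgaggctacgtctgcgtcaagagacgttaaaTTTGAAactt
The Bub1 window holds 2 CCAAT matches and 0 TTTGAA, and the Bub1b window 1 of each, with no overlap. Of the other genes past 2-fold, Cenpq had 3 CCAAT and 0 TTTGAA, Cenpl 2 and 1, and Nuf2 0 of both. Incenp and Zwilch matched no promoter window by symbol. Over the 46 genes that matched the promoter table by symbol (53 windows), CCAAT was found in 64.2% of windows and TTTGAA in 32.1%, against 37.4% and 17.9% of all 32851 windows of the table and 38.5% and 12.7% of the 10718 windows of genes compared. A match of letters is a description and not a binding site.

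The 3′ ends are shown as well, since both libraries began from polyadenylated RNA and stored egg mRNAs carry sites that set the length of the poly(A) tail. Within the last 100 bases of the longest protein-coding transcript (GENCODE M21), the letters TTTTAT or TTTTAAT of the cytoplasmic polyadenylation element (CPE) and the polyadenylation signals AATAAA or ATTAAA were searched on the sense strand, where TTTTAT and ATTAAA can overlap. For the genes at least 2-fold apart, 30 bases around these letters are given, with the letters in capitals. They lie at chr2:127801127-127801156 (minus strand) for Bub1, chr2:118641556-118641585 (plus) for Bub1b, chr19:9872344-9872373 (minus) for Incenp, chr1:169497937-169497966 (minus) for Nuf2, chr17:40923065-40923094 (minus) for Cenpq and chr1:161086656-161086685 (plus) for Cenpl:
Bub1: atgtttaaaaaaAATAAAgcccatatgata
Bub1b: cactgtgtaTTTTATAATAAAatagttttt
Incenp: gtgaggtagtttAATAAAgtgtatagccca
Nuf2: tattacccagctATTAAAaacaatgaattt
Cenpq: attatttttaaaAATAAAaaaaaaaatgcc
Cenpl: tactgagtatatTTTTATgatggcatctgg
Bub1b joins one of its 2 CPE matches directly to AATAAA, Cenpl holds a CPE without a signal in the window searched, and the other 4 hold a signal without a CPE. Zwilch held neither. Among the 53 genes 14 had a CPE in the last 100 bases, 26.4%, against 19.6% of all genes compared, and 39 had a polyadenylation signal, 73.6%, against 81.2%. The median log2 ratio was -0.11 in the 14 genes with a CPE and -0.34 in the 39 without one, and over all genes compared it was 0.24 and 0.20.

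The other checkpoint genes stayed closer to equal. Mad2l1, the MAD2 protein that captures the activator of the anaphase-promoting complex, was the most abundant with 509.2 TPM in the zygote compared with 328.7 TPM in PB2, which gave a log2 ratio of -0.63. Mad1l1, which anchors MAD2 at the kinetochore, had 13.4 and 17.3 TPM. Mad2l1 was 38 times as abundant as Mad1l1 in the zygote and 19 times in PB2. Mad2l1bp, which encodes p31comet and helps to take the checkpoint complex apart, had 184.6 TPM in the zygote compared with 187.1 TPM in PB2, so that Mad2l1 was 2.76 times as abundant in the zygote and 1.76 times in PB2. Bub3, the partner that binds both BUB1 and BubR1 to KNL1, had 88.6 and 88.7 TPM, the most even values of the 53 genes. Ttk, the MPS1 kinase that starts the checkpoint signal, had 63.1 TPM in the zygote compared with 76 TPM in PB2. Mad2l2, a MAD2 relative that acts in translesion DNA synthesis, had 58.8 and 57.6 TPM. The median log2 ratio of the 8 checkpoint genes was 0.01, but -0.07 with the zygote scaled to a median ratio of 1 and -0.38 with the GC trend removed.

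The chromosomal passenger complex joins Aurora B or Aurora C to INCENP, survivin (Birc5) and borealin (Cdca8), and its subunits differed in opposite directions. Incenp, the scaffold that activates the kinase, had 34.1 TPM in the zygote but 81 TPM in PB2, which gave a log2 ratio of 1.22, the highest of the 53 genes as reported. With the GC trend removed Incenp was at 0.59, short of 2-fold and below Bub1b (0.80), Cenpa (0.74), Cenpw (0.71), Knl1 (0.66) and Cenpf (0.60). Birc5, which docks the complex on phosphorylated histone H3, had 789.5 TPM in the zygote but 409.8 TPM in PB2, which gave a log2 ratio of -0.94. Birc5 was 23.2 times as abundant as Incenp in the zygote and 5.06 times in PB2. Cdca8 had 177.7 TPM in the zygote compared with 237.7 TPM in PB2, which gave a log2 ratio of 0.42 that became -0.07 when the GC trend was removed. Among the 3 non-kinase subunits, Incenp made up 3.41% of the transcripts in the zygote and 11.1% in PB2, and Birc5 78.8% and 56.3%.

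Of the Aurora kinases, Aurkc was by far the most abundant. Aurora C is a relative of Aurora B that works in meiotic cells and the early embryo. Aurkc had 1378.6 TPM in the zygote compared with 1538.9 TPM in PB2, or 83.5% and 86.3% of the transcripts of the 3 kinases. Of the 50-base stretches of its transcript 63.7% also occur in transcripts of other genes, 50.1% in Gm12463, so its level depends on how reads that map to several places were counted. No other of the 53 genes shared more than 5.34% of its stretches. Aurka, the kinase of the spindle poles, had 266.7 TPM in the zygote compared with 235 TPM in PB2, which gave a log2 ratio of -0.18, and Aurkb, the mitotic centromere kinase, had 6.4 and 9.6 TPM, a log2 ratio of 0.52. Aurkc was 215 times as abundant as Aurkb in the zygote and 160 times in PB2. The 3 kinase genes each carry a CPE within the last 100 bases, at chr2:172356237-172356266 (minus strand) for Aurka, chr11:69051619-69051648 (plus) for Aurkb and chr7:7003045-7003074 (plus) for Aurkc, shown with CPE and polyadenylation signal in capitals:
Aurka: ttaaaggctattTTTTATgttggagttctg
Aurkb: agaacaacaTTTTATAATAAAgtcttaaat
Aurkc: ctcTTTTATgaagtgatgttaATTAAAact
Aurkb has the CPE joined to AATAAA as in Bub1b, Aurkc has the CPE ahead of ATTAAA, and Aurka has no signal in the last 100 bases. The log2 ratios of the 3 kinases lay between -0.18 and 0.52, and with the GC trend removed between -0.56 and 0.06. Over the 3 kinases and 3 other subunits the median log2 ratio was 0.29, but -0.16 with the GC trend removed.

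The KMN network forms the microtubule-binding face of the kinetochore. It had 6 of 9 genes lower in PB2, where 40.0% of all genes compared and 62.3% of the 53 genes were lower. Among these 6 was the whole NDC80 complex. This complex is a rod of 4 proteins, of which NDC80 and NUF2 touch the microtubule and SPC24 and SPC25 hold on to the kinetochore. Nuf2 had 229.4 TPM in the zygote but 101.3 TPM in PB2, which gave a log2 ratio of -1.17. Spc25 had 155.5 and 82.9 TPM, Ndc80 had 174.3 and 116 TPM, and Spc24 had 35.9 and 21.9 TPM. All 4 were lower in PB2 under each alternative tried, with log2 ratios from -1.17 to -0.58 as reported, and their summed level was 595.1 TPM in the zygote but 322.1 TPM in PB2. The subunits were unequal in level within each library: Spc24 made up 6.03% of the transcripts of the complex in the zygote and 6.8% in PB2, and Nuf2 38.5% and 31.4%.

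The MIS12 complex, which links the NDC80 complex to the inner kinetochore, was less uniform. Dsn1 had 440.5 TPM in the zygote but 240.9 TPM in PB2, which gave a log2 ratio of -0.87. Mis12 had 72.6 and 74 TPM, and Pmf1 had 57.2 and 45.1 TPM. Nsl1 was among the lowest of the 53 genes with 1.4 TPM in the zygote compared with 2 TPM in PB2, and rounding of the deposited values to 1 decimal alone allows its ratio to lie between 1.34 and 1.52. Dsn1 was 6.07 times as abundant as Mis12 in the zygote and 3.26 times in PB2. Knl1, the scaffold on which the checkpoint proteins BUB1 and BUB3 gather, had 29.1 TPM in the zygote compared with 34 TPM in PB2. The median log2 ratio of the 9 KMN genes was -0.58.

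The SKA complex, which follows shrinking microtubule ends together with NDC80, was lower in PB2 in all 3 of its genes under each alternative tried. As reported, 40.0% of all genes compared were lower in PB2. Ska1 had 51.7 TPM in the zygote but 25.5 TPM in PB2, which gave a log2 ratio of -0.99. Ska3 had 40.9 and 32.9 TPM, and Ska2 had 11.3 and 8.9 TPM, both with log2 ratios of -0.31. Of the exon bases of Ska2, 10.1% overlap a gene on the opposite strand.

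The constitutive centromere-associated network held Cenpn, the most abundant of the 53 genes in the zygote, and 2 of the 5 genes past 2-fold towards the zygote. Cenpn, whose protein reads the CENP-A nucleosome, had 1548.6 TPM in the zygote compared with 1154.2 TPM in PB2, rank 86 and rank 96 among all genes of the table, with a log2 ratio of -0.42. Its direct partner Cenpl had 3.4 TPM in the zygote but 1.1 TPM in PB2, which gave a log2 ratio of -1.07. The ratio of the deposited Cenpl values was 3.09, and rounding allows 2.91 to 3.29, so the pseudocount makes the difference look smaller at this low level. Cenpn was thus 455 times as abundant as Cenpl in the zygote and 1049 times in PB2. Cenpq, a subunit of the CENP-O, CENP-P, CENP-Q and CENP-U group that connects to the polo kinase and microtubules, had 216.3 TPM in the zygote but 91.3 TPM in PB2, which gave a log2 ratio of -1.24.

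The partners of Cenpq differed less. Cenpo had 59.1 TPM in the zygote compared with 40.7 TPM in PB2, Cenpu had 54.4 and 49.3 TPM, and Cenpp had 108.1 and 131.3 TPM. Of the DNA-binding histone-fold proteins of the network, Cenpx had 571.8 and 433.9 TPM, Cenps 426.8 and 268.5 TPM, Cenpw 60 and 68.8 TPM, and Cenpt 23.3 and 20.9 TPM. CENP-S and CENP-X also act in DNA repair outside the kinetochore. In the group of CENP-H, CENP-I, CENP-K and CENP-M, Cenph had 381.5 TPM in the zygote compared with 360.5 TPM in PB2, Cenpk 125.1 and 72.1 TPM, Cenpm 35.4 and 49.2 TPM, and Cenpi 10.6 and 7.6 TPM. Over the 14 network genes, 11 had a lower TPM in PB2 and 3 a higher one, and the median log2 ratio was -0.41. Of all genes compared 40.0% had a lower TPM in PB2, and of the 53 genes 62.3%. Exons of Cenpo, Cenpu and Cenpp overlap a gene on the opposite strand over 22.5%, 26.7% and 12.6% of their bases, and whether reads were counted by strand is not given in the sources used here.

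At the centromere itself the values went in different directions. Cenpa, the histone H3 variant that marks the centromere, had 29.1 TPM in the zygote but 51.7 TPM in PB2, which gave a log2 ratio of 0.81 that stayed between 0.60 and 0.83 under the alternatives. Cenpc1, which binds the CENP-A nucleosome and organizes the layers above it, had 10.6 and 7.1 TPM, a log2 ratio of -0.52. Mis18a, which takes part in loading new CENP-A, had 68.3 TPM in the zygote compared with 64.7 TPM in PB2.

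Proteins of the outermost layer, the corona, showed one gene past 2-fold. Zwilch, a subunit of the ROD, ZW10 and Zwilch complex that brings dynein and MAD1 to kinetochores, had 43.9 TPM in the zygote but 20.4 TPM in PB2, which gave a log2 ratio of -1.07, and its partner Zw10 had 74.3 and 53.7 TPM, a log2 ratio of -0.46. Both were lower in PB2 under each alternative. Cenpe, the kinesin that moves chromosomes to the spindle equator, had 151.3 and 175.8 TPM, and Cenpf, a large coiled-coil protein of the corona, had 112.1 and 153 TPM, a log2 ratio of 0.45.

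Shugoshins protect the cohesin that holds sister centromeres together. Sgo1 had 87.6 TPM in the zygote compared with 67.5 TPM in PB2, which gave a log2 ratio of -0.37. Sgo2a, the shugoshin of meiosis, had 11.1 and 11.4 TPM, and Sgo2b had 22.3 and 20 TPM. Exon bases of Sgo2a overlap the gene Kctd18 on the opposite strand over 35%, and 3.6% of the 50-base stretches of Sgo2b also occur in Sgo2a. The remaining genes taken by symbol have roles apart from the kinetochore core: Cenpj, a protein of the centriole, had 78.6 TPM in the zygote compared with 56.3 TPM in PB2, and Cenpv had 58.4 and 60.8 TPM.

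**Figure D3:**
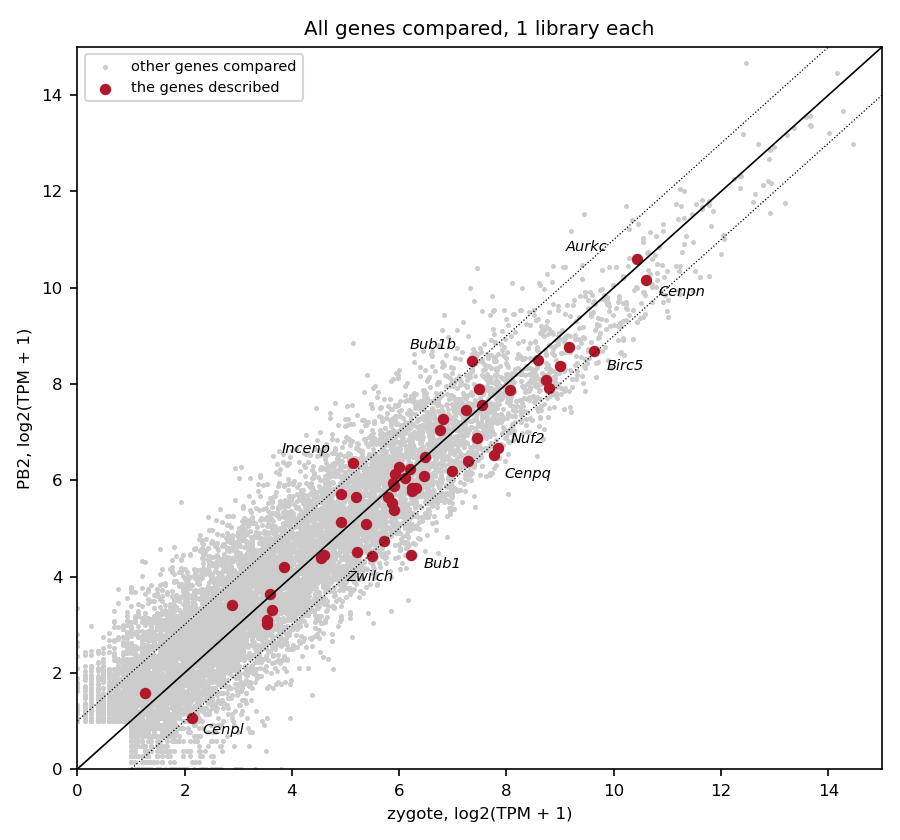
Log2(TPM + 1) in the zygote (horizontal) and PB2 (vertical) for the 10645 genes compared (grey) and the 53 genes described (red), 1 library each. The solid line marks equal levels and the dotted lines 2-fold; Incenp and Bub1b lie above the upper line, and Bub1, Cenpq, Nuf2, Zwilch and Cenpl below the lower one.

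The log2 ratio of all genes followed transcript GC content, and the kinetochore genes were AT-rich compared with the table. Across genes, the log2 ratio and the GC content of the longest protein-coding transcript had a Spearman's rho of 0.44 over the 10606 genes with a transcript and of 0.27 over the 53 genes, where the points share the same 2 libraries. The median GC content was 45.4% for the 53 genes and 49.1% over the genes compared. Of the 53 genes, 35 lay below the median GC content of the genes compared, with a median log2 ratio of -0.40 against -0.10 for all genes below it, and 18 lay above it, with 0.04 against 0.58. With the trend removed by loess the median log2 ratio of the 53 genes was -0.27 and that of all genes 0.01. Below 0 lay 36 of the 53, as many as lay below the median of all genes. In that setting no gene was at least 2-fold higher in PB2, as Incenp (54.5% GC) went from 1.22 to 0.59 and Bub1b (50.4% GC) from 1.11 to 0.80. Bub1 (41% GC) was at -1.51 and Cenpq (43.2% GC) at -1.07, both still past 2-fold towards the zygote. Nuf2 at -0.96, Zwilch at -0.92 and Cenpl at -0.77 no longer were, whereas Cenps at -1.38, Pmf1 and Spc24 both at -1.18, Cenpx at -1.09 and Birc5 and Ska1 both at -1.02 then were.

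**Figure D4:**
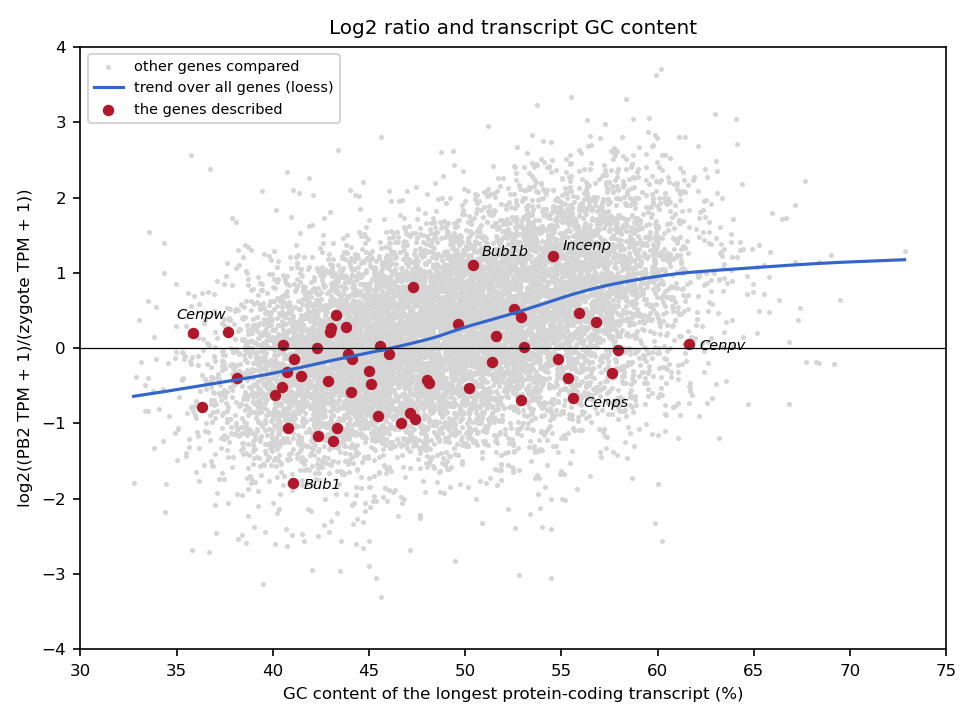
Log2 ratio against the GC content of the longest protein-coding transcript in percent, for the genes compared (grey, with their loess trend in blue) and the 53 genes described (red). The trend rises with GC content; Bub1 lies far below it and Cenpw and Bub1b above it.

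**Figure D5:**
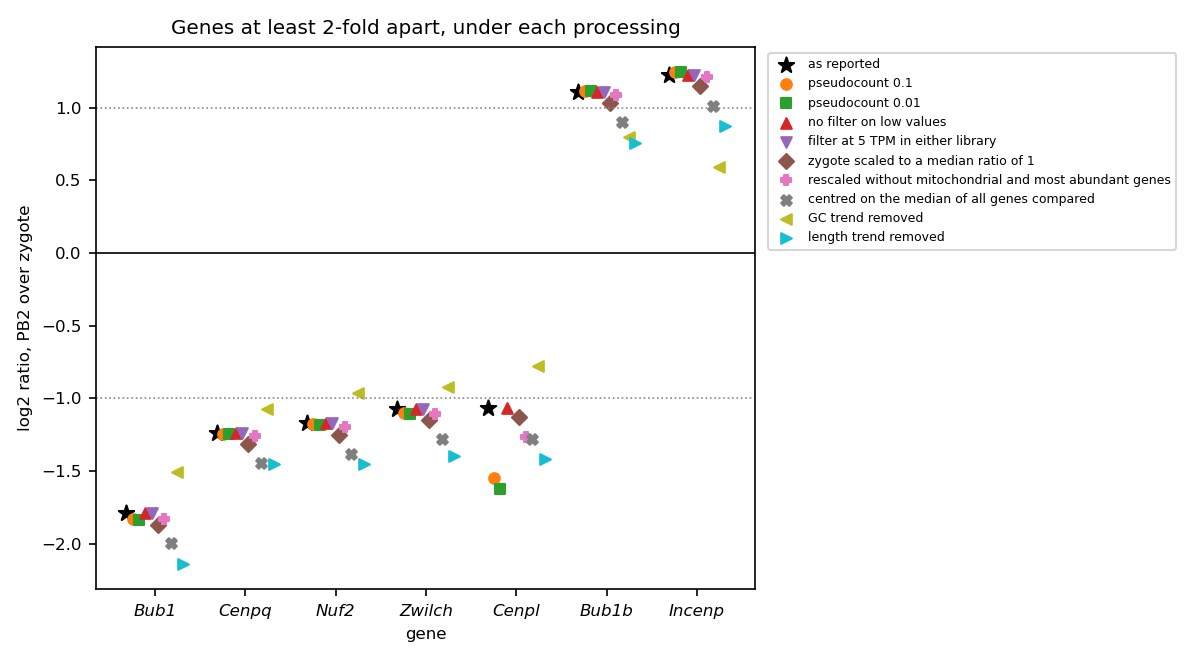
Log2 ratio of the 7 genes at least 2-fold apart as reported (stars) and under 9 other ways of processing (other symbols), with dotted lines at 2-fold. Bub1 and Cenpq lie past 2-fold in each, Cenpl has no point where genes under 5 TPM were left out, while Incenp falls to 0.59 and Bub1b to 0.76 at the least.

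Genes that work with these were examined through a list of cofactors: kinases, phosphatase subunits, motors, loading factors and microtubule regulators of the same processes. The table held 43 such genes, of which 42 were compared, with a median log2 ratio of 0.29. Past 2-fold towards PB2 were 11 of them, 26.2%, beside a background of 18.9%, and towards the zygote 4, 9.52%, beside 8.09%. In all, 22 of the 42 had a higher TPM in PB2 and 20 a lower one (47.6%, where the background of lower genes was 40.0%). With the GC trend removed 7 of the 42 passed 2-fold towards PB2 (16.7%, beside 9.08% of all genes) and 2 towards the zygote (4.76%, beside 11.0%). The largest log2 ratios towards PB2 were those of Kif18b, a kinesin that shortens astral microtubules, with 1.9 TPM in the zygote but 15.5 TPM in PB2 (2.51), and of Cdc20, the activator of the anaphase-promoting complex on which the checkpoint acts, with 96 and 392 TPM (2.02). Towards the zygote they were those of Kif18a, a kinesin that dampens chromosome movement, with 52.1 TPM in the zygote but 19.8 TPM in PB2 (-1.35), and of Tpx2, the activator of Aurora A, with 268.8 and 126.6 TPM (-1.08). With the GC trend removed these log2 ratios were 1.82 for Kif18b, 1.30 for Cdc20, -1.18 for Tpx2 and -0.94 for Kif18a, which then missed 2-fold.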

How the data were processed

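Amplified cDNA of PB2 and of zygotes was sequenced with 1 library each. The authors called bases with CASAVA, aligned reads with HISAT2 2.0.4, counted them per gene with HTSeq 0.6.1p1 on an Ensembl annotation and normalized with DESeq2 1.18.1. Their processing notes name the builds OryCun2.0, a rabbit assembly, and GRCm38, while the identifiers are mouse ones. What the authors deposited is TPM to 1 decimal, and how it was computed is not given in the sources used here. TPM keeps no read number, so the depth is unknown and no counting interval is given. One column is named for polar bodies and was matched to PB2. The other is named for the 1-cell stage and was taken as the zygote by meaning and because no other sample was left. No column (0) was left over.

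From the TPM, log2 ratios with a pseudocount of 1 were computed for genes that reached 1 TPM in PB2 or in the zygote, and those past 2-fold were counted. No test fits 1 library per group. The genes were taken by symbol and are named, except 1 that counts and medians include but that is not reported here, and the cofactor list, its 2 named genes in each direction, the markers and the motifs CCAAT and TTTGAA were written down with them. All were chosen with earlier results of these data known. The CPE search, the ratios between genes and the overlaps were chosen after the values were seen. Transcript GC content, length, exons and positions are those of GENCODE M21 (GRCm38), and promoters those of RefSeq (GRCm38.p6). Loess trends used a span of 0.3. The alternatives were pseudocounts of 0.1 and 0.01, no filter or one at 5 TPM, 2 scalings, centring, removal of the GC or length trend, and limits of 1.5-fold and 4-fold. The work was done in Python 3.11.15 with statsmodels 0.14.6 for loess, matplotlib 3.10.9 for plots, and scipy 1.17.1, pandas 2.3.3 and numpy 2.4.6.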

Additional observations from a re-analysis of the deposited data

How the results depend on the processing

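No paired analysis was possible because each group has 1 library. Counts were held to be unchanged up to a factor of 1.5, medians inside their 95% order-statistic interval (inside the range of the genes for groups of 5 or fewer) and single genes up to 0.5 on the log2 scale. For the checkpoint genes (-1.79 to 1.11) and the Aurora genes (-0.94 to 1.22) that interval was also their full range. Their medians could thus hardly be labelled as moved. Of 587 values under the alternatives 562 were unchanged, 25 moved (12 single genes, 4 medians of role groups and 9 counts). Much of this was fixed by the limits. The filters cannot change the log2 ratio of a single gene, and centring shifts each by -0.21, short of 0.5. The number unchanged is therefore no measure of how stable the values are. Of the 7 genes at least 2-fold apart 0 changed direction, whereas 18 of the 53 genes, all short of 2-fold, did under at least 1 alternative, as did the medians of the checkpoint, Aurora and shugoshin genes. As reported, 2 of the 53 genes passed 2-fold towards PB2 and 5 towards the zygote. After centring on the median of all genes, which shifts each log2 ratio by -0.21, these counts were 1 (Incenp) and 9. Of all genes 13.0% and 12.1% then passed. The counts were 0 and 8 with the GC trend removed (9.08% and 11.0% of all genes). They were 0 and 8 with the length trend removed (12.1% and 11.7% of all genes). At 1.5-fold 13 genes were higher in the zygote (18.1% of all genes were) and 3 in PB2 (34.2% of all genes were). At 4-fold 0 genes were higher in the zygote (0.695% of all genes were) and 0 in PB2 (2.48% of all genes were). Over all genes compared 2009 passed 2-fold towards PB2 and 861 towards the zygote, so that PB2 held 70% of these calls. It held 51.7% after centring (1383 and 1291 genes), 45.3% with the GC trend removed (963 and 1162) and 50.8% with the length trend removed (1284 and 1242). The median of the 53 genes lay between -0.39 and -0.18, below that of all genes in each setting. Of the 12 single genes that moved, 11 did so with the GC trend removed, and Cenpl did with a pseudocount of 0.01, to -1.62. The cause of the changes with the trends removed was not tested. The precision of genes of a few TPM, such as Nsl1 and Cenpl, cannot be given without the depth.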
